A study of Mus musculus with 12 samples.

Results

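The 10 genes described here are stress and growth response genes that belong to the early transcriptional answer of many cells to a stimulus: Ier2, Ier3, and Ier5, Btg2, the Gadd45 family (Gadd45a, Gadd45b, and Gadd45g), the Pim kinases Pim1 and Pim3, and Myc. They were chosen by name and not by a cut on their values, but with earlier results of these data known. They were 10 of the 54119 genes with summed counts. All 10 passed the filter on low counts, which 19150 genes passed.

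The study measured RNA of cerebral vessels, separated from the forebrain of perfused C57BL6 mice after removal of the meninges, by a dextran spin and capture on a mesh. Wild type mice aged 2-3 months received either PBS or LPS (lipopolysaccharide, a component of the outer membrane of Gram-negative bacteria) at 10 mg/kg into the peritoneum, and vessels were taken at 15 min, at 30 min, or at 4 h. Each of the 4 groups had 3 libraries, and each library pooled 1 male and 1 female mouse, so p-values measure the spread between pools and a sex difference cannot be seen. How long after PBS the control mice were killed is not given in the sources used here. Estimated fragments per library ranged from 18.3 to 25.9 M. In each library the fragments were scaled by the trimmed mean of M values (TMM) to CPM, counts relative to the library's size, which compare 1 gene between libraries. TPM, which is also scaled for transcript length, was used to compare different genes.

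Many early response genes are transcribed from promoters that already carry polymerase, need no new protein synthesis for their first wave, and give rise to short-lived mRNAs. Ier2 and Ier5 encode nuclear regulators of transcription, Ier3 a small membrane-anchored modulator of cell survival and ERK signalling, and Btg2 an antiproliferative adaptor that brings the CCR4-NOT deadenylase to mRNAs. Gadd45 proteins activate MAP3K4 upstream of p38 and JNK and bind cell cycle proteins, Pim kinases are constitutively active survival kinases whose activity follows their amount, and Myc, paired with Max, drives ribosome production, metabolism, and growth. Brain endothelium is exposed to blood-borne LPS and cytokines and is a known site of such a response.

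The 10 genes did not move as a block, and all 10 were higher than PBS by 4 h. At LPS 15 min 4 of 10 were called higher than PBS and 0 lower, where 3.31% of all genes tested were called higher and 0.872% lower. At LPS 30 min 7 of 10 were called higher and 0 lower, against 3.78% and 0.799% of all genes. At LPS 4 h 10 of 10 were called higher, against 19% of all genes called higher and 13.8% lower. The 10 genes had a median log2 fold change of 0.31, then 1.71, then 2.95 with time, where the median of all genes tested lay at -0.0021, -0.010, and -0.0098. A gene was called when its change exceeded 1.5-fold in edgeR's quasi-likelihood test (glmTreat) at a Benjamini-Hochberg adjusted p under 0.05 over all 19150 genes. At 15 min all 3 LPS libraries lay above all 3 PBS libraries for 5 of the 10 genes and below them for 1, where 25.2% and 24.1% of all genes did so. At 30 min this held for 8 above and 1 below, against 23.7% and 23%, and at 4 h for 10 above and 0 below, against 35.9% and 35%. All comparisons with PBS use the same 3 PBS libraries and are therefore not independent of each other.

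**Figure D1:**
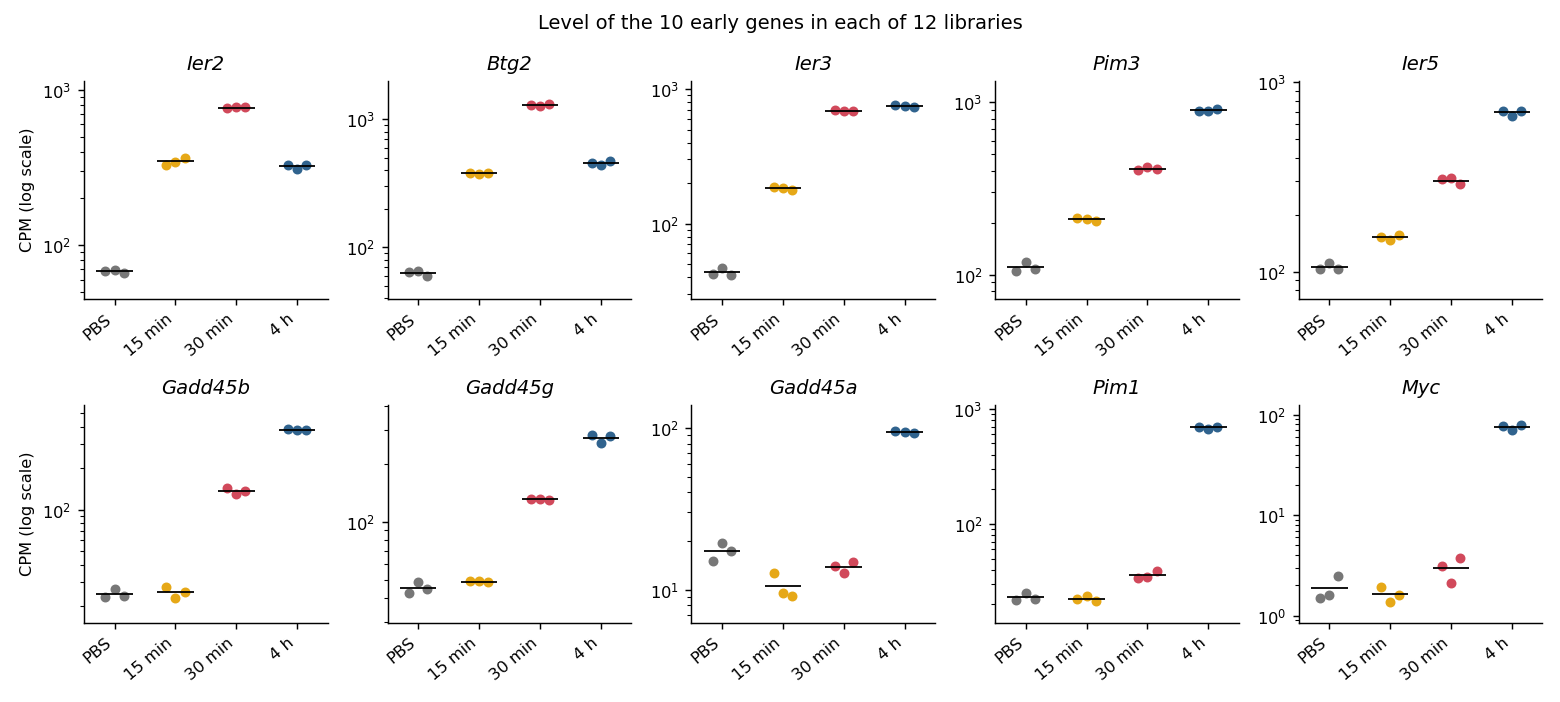
Level of each of the 10 genes in CPM (vertical axes, log scale, each with its own range) in the 3 libraries of the PBS group and of each time after LPS (horizontal axes), with 1 point per library and the group mean as a line. Ier2 and Btg2 are highest at 30 min, Ier3 is nearly level from 30 min to 4 h, and the other 7 genes are highest at 4 h.

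Marker RNA of several cell types differed between the groups. The summed level of 5 neutrophil markers was 1.98 to 2.67 CPM in PBS and 162 to 169 CPM at 4 h, of which S100a9 alone held 88.5 to 94.6 CPM, and Ly6g had no count in any PBS library and 0.137 to 0.599 CPM at 4 h. The summed level of 7 endothelial markers was 7501 to 7739 CPM in PBS and 4629 to 4677 CPM at 4 h, with 5 of the 7 called lower and 1, Cdh5 (singled out after its values were seen), called higher, where 13.8% of all genes were called lower and 19% higher. Slc2a1 alone held 2684 to 2786 CPM in PBS and 1310 to 1336 CPM at 4 h. At 15 and 30 min the sum was higher, 7877 to 7930 and 8829 to 8865 CPM. Slc2a1 alone held 4399 to 4500 and 5496 to 5534 CPM of it. At both times all LPS libraries lay above all PBS libraries for 1 of the 7 markers and below for 5. Of all genes, 25.2% and 24.1% did so at 15 min, and 23.7% and 23% at 30 min. At both times Slc2a1 was called higher and Cldn5 and Kdr lower, where 3.31% and 3.78% of all genes were called higher and 0.872% and 0.799% lower. At 15 min the sum of 4 smooth muscle markers was 1487 to 1507 CPM against 2344 to 2380 CPM in PBS, with 3 of the 4 called lower, where 0.872% of all genes were. The sum of 4 neuronal markers was 453 to 463 CPM against 286 to 296 CPM, with 2 of the 4 called higher, where 3.31% of all genes were. The sum of 4 astrocyte markers was 210 to 236 CPM in PBS, 113 to 130 CPM at 15 min, and 330 to 351 CPM at 4 h. It was mostly Gfap, with means of 179, 77.9, and 281 CPM. At 15 min only Gfap was called, lower, and Aqp4 had a higher mean than in PBS (8.18 against 2.91 CPM, not called). At 4 h Gfap and Aqp4 were called higher, where 19% of all genes were, and Aldh1l1 was level with PBS (25.2 against 25.1 CPM). The sum of 6 microglia markers was 103 to 109 CPM in PBS and 64.5 to 69.3 CPM at 4 h. It was mostly Csf1r, at 69.9 to 77.2 and 51.6 to 55.6 CPM, which was not called. At 4 h 3 of the 6 (Cx3cr1, P2ry12, and Siglech) were called lower, where 13.8% of all genes were. At 30 min 1 of the 6, Cx3cr1, was called lower, where 0.799% of all genes were. None of the endothelial markers was at 0 in any library. The part of these shifts in the changes described here was not tested, and in bulk vessels fewer cells of a type cannot be told apart from less RNA per cell.

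Btg2 and Ier2 formed an early pair, called at every time and highest at 30 min. Btg2 measured 63.5, 64.7, and 59.9 CPM in the PBS libraries and 380, 376, and 379 CPM at 15 min. It reached 1304, 1282, and 1314 CPM at 30 min and stood at 452, 442, and 472 CPM at 4 h. No 2 groups overlapped, and the spread within each was small beside the steps between them. In TPM the mean was 232 at 15 min and 150 at 4 h, so the order of these 2 times depended on the scaling. Against PBS, Btg2 was 6.04-fold higher at 15 min (log2 fold change 2.59 ± 0.0305 SE, n = 3 against 3), 20.7-fold at 30 min (4.37 ± 0.0316), and 7.26-fold at 4 h (2.86 ± 0.0310). The adjusted p were 5.2e-24, 2.4e-29, and 3.1e-26. From 30 min to 4 h Btg2 fell by 1.51 ± 0.0274 on the log2 scale (adjusted p = 5.2e-20).

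Ier2 measured 68.6, 69.2, and 66.3 CPM in PBS and 330, 344, and 366 CPM at 15 min. It reached 764, 771, and 776 CPM at 30 min and stood at 326, 311, and 330 CPM at 4 h. In CPM the rank of the groups was PBS, 4 h, 15 min, and 30 min, and although no neighbours overlapped, the highest 4 h library and the lowest 15 min library were almost level. In TPM the rank was the same, but these times stood further apart, with means of 215 at 4 h and 428 at 15 min. Against PBS, Ier2 was 5.09-fold higher at 15 min (log2 fold change 2.35 ± 0.0348), 11.3-fold at 30 min (3.5003 ± 0.0354), and 4.73-fold at 4 h (2.24 ± 0.0356). Ier2 fell by 1.26 ± 0.0319 from 30 min to 4 h (adjusted p = 6.2e-16).

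Ier3 shared the early rise but not the later fall. It measured 42.2, 47.0, and 41.4 CPM in PBS, 187, 184, and 178 CPM at 15 min, 702, 694, and 686 CPM at 30 min, and 766, 752, and 736 CPM at 4 h. On the log2 scale Ier3 exceeded PBS by 2.07 ± 0.0365 at 15 min, by 3.99 ± 0.0366 at 30 min, and by 4.11 ± 0.0369 at 4 h. The step from 30 min to 4 h was 0.11 ± 0.0303 and was not called (adjusted p = 1). Its direction depended on the scaling, being -0.42 when libraries were scaled by their totals alone and -0.48 in TPM, so Ier3 at 4 h was near its 30 min level without a settled order between them.

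The promoters of Btg2 and Ier3 are shown because these genes were among the 4 called at 15 min and each holds, close to its start, 1 match to a motif that only few promoters hold. The sequences are the 250 bases before the RefSeq transcription start on GRCm38.p6, 5′ to 3′ along the gene's own strand. RefSeq promoters were found for 8 of the 10 genes, all but Ier2 and Myc. Capitals mark a cyclic AMP response element (CRE, TGACGTCA) in Btg2 and a match to the kB motif in Ier3.
Btg2, chr1:134079156-134079405, minus strand: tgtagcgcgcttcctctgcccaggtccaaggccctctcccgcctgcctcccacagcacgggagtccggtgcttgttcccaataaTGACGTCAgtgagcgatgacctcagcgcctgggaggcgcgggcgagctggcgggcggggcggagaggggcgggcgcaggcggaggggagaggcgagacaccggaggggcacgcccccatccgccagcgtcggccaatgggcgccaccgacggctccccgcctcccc
Ier3, chr17:35821463-35821712, plus strand: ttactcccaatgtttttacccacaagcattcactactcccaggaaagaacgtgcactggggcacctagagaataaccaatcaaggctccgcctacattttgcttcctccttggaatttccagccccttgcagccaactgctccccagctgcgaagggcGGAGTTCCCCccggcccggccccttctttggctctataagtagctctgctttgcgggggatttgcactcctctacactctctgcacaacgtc
The CRE begins 166 bases before the Btg2 start and stood in 1 of the 8 promoters and in 1.55% of 32851 promoters of the same length, searched on both strands. The kB motif begins 92 bases before the Ier3 start and stood in 1 of the 8 and in 3.90% of all promoters. The serum response element core (CArG box) stood in 0 of the 8, as did the AP-1 site TGANTCA and the GAS element TTCNNNGAA, which 1.47%, 6.75%, and 7.02% of all promoters hold. The CCAAT box and the GC box GGGCGG each stood in 7 of the 8, against 33.8% and 32.7% of all promoters, beside a GC content of 54.4% to 82.4% in the 8 and a median of 52.4% in all. A match is a stretch of letters and says nothing of whether a factor was bound there.

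Ier5, whose product is known for activating the heat shock factor HSF1, rose later than Ier2 and Ier3. It measured 103, 112, and 103 CPM in PBS, 152, 147, and 157 CPM at 15 min, 307, 312, and 289 CPM at 30 min, and 710, 667, and 703 CPM at 4 h. Each group lay above the one before without overlap. The 15 min difference, 0.52 ± 0.0371 on the log2 scale, lay under the 1.5-fold limit and was not called, although its 95% interval of 0.45 to 0.59 excluded 0. The log2 fold change was 1.52 ± 0.0365 at 30 min and 2.71 ± 0.0369 at 4 h (adjusted p = 1.0e-16 and 3.0e-24).

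**Figure D2:**
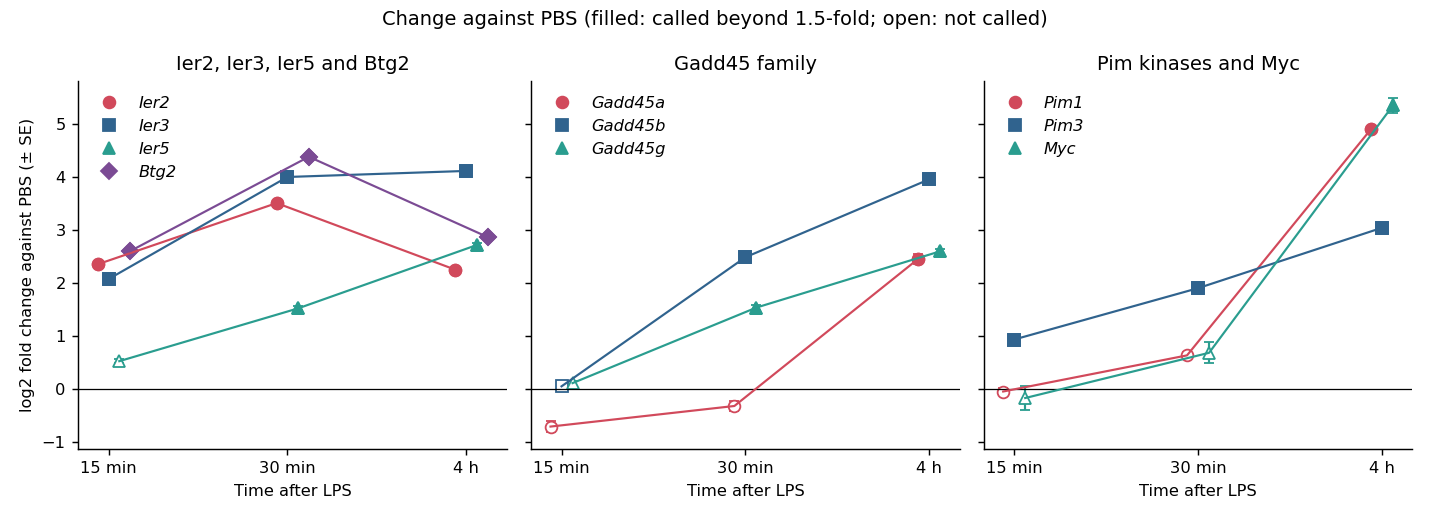
Log2 fold change against PBS (vertical axis, from edgeR, bars are SE) at the 3 times after LPS (horizontal axis, evenly spaced and not to scale in time) for the Ier genes with Btg2, the Gadd45 family, and the Pim kinases with Myc. Filled symbols were called beyond 1.5-fold and open symbols were not. Btg2 and Ier2 turn down after 30 min, and Pim1, Myc, and Gadd45a are called only at 4 h.

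The Gadd45 family split by member. Gadd45b measured 23.2, 26.6, and 23.9 CPM in PBS and 27.4, 22.9, and 25.6 CPM at 15 min, with the groups overlapping. It then reached 143, 131, and 137 CPM at 30 min and 385, 375, and 380 CPM at 4 h. The 15 min difference was 0.045 ± 0.0611 on the log2 scale with a 95% interval of -0.07 to 0.16, the 30 min change 2.48 ± 0.0518, and the 4 h change 3.95 ± 0.0510, or 15.4-fold. Gadd45b had therefore the largest step from 15 to 30 min of the 10 genes, 2.43 ± 0.0519 (adjusted p = 5.6e-19).

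Gadd45g followed the same course at a smaller size. It measured 42.7, 48.7, and 44.6 CPM in PBS, 48.9, 49.2, and 48.4 CPM at 15 min, 132, 131, and 130 CPM at 30 min, and 284, 257, and 280 CPM at 4 h. PBS and 15 min overlapped through the highest PBS library alone. The 15 min difference of 0.11 ± 0.0475 on the log2 scale was not called, and the later changes were 1.53 ± 0.0443 and 2.59 ± 0.0441.

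Gadd45a, the family member best known as a target of p53, took another course. It measured 15.0, 19.4, and 17.3 CPM in PBS, 12.7, 9.56, and 9.13 CPM at 15 min, 14.0, 12.7, and 14.7 CPM at 30 min, and 95.3, 94.3, and 93.7 CPM at 4 h. The order was 15 min, 30 min, PBS, and 4 h. No neighbours overlapped, but the gaps between the lowest 3 groups were narrow. The log2 fold changes of -0.71 ± 0.104 at 15 min and -0.33 ± 0.102 at 30 min were not called (adjusted p = 0.462 and 1). Without the first of the 15 min libraries, which was the highest of the 3, the 15 min value was -0.89 and was called (adjusted p = 0.023). At 4 h Gadd45a was 5.46-fold higher than PBS (log2 fold change 2.45 ± 0.0890, adjusted p = 1.5e-15). A non-coding gene on the other strand, E230016M11Rik, overlaps Gadd45a and had a mean of 2.66 CPM in PBS and 2.46 CPM at 4 h.

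The promoters of Gadd45b and Gadd45g are shown because the levels of this pair ran most closely together over the 12 libraries. Capitals mark an E-box (CACGTG), the sequence that Myc with Max and other basic helix-loop-helix factors bind.
Gadd45b, chr10:80929841-80930090, plus strand: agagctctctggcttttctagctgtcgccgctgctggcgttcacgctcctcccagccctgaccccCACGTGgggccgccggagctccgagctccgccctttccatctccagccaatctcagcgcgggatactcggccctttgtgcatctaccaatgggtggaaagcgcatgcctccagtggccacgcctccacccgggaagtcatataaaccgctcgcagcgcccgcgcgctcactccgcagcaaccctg
Gadd45g, chr13:51846425-51846674, plus strand: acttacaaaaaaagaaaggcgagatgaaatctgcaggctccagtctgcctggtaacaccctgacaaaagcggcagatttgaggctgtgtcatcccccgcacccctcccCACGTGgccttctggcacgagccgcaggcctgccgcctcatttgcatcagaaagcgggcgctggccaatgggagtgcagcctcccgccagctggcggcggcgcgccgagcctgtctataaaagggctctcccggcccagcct
The E-box begins 185 bases before the Gadd45b start and 142 bases before the Gadd45g start. These were the 2 promoters of the 8 that held it, where 6.02% of all promoters do. Gadd45a, whose promoter is of the same length, held none.

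Ratios of TPM within a library showed how the balance between family members changed. In the PBS libraries Gadd45b stood at 1.45, 1.201, and 1.22 times Gadd45a. The ratio was 1.959, 2.23, and 2.67 at 15 min, 9.62, 9.10, and 8.20 at 30 min, and 3.66, 3.63, and 3.63 at 4 h, so it peaked at 30 min and never overlapped PBS. The difference of the log2 ratio from PBS was 0.82, 2.80, and 1.501 at the 3 times (exact two-sided permutation test, p = 0.1 each, the smallest that 3 against 3 libraries allow). At 15 min Gadd45b overlapped PBS and Gadd45a lay below it. Gadd45g to Gadd45a differed from PBS by 0.82 and 1.79 at 15 and 30 min (exact permutation p = 0.1 each) and by 0.14 at 4 h, where the groups overlapped (exact permutation p = 0.2). Gadd45b to Gadd45g stood at a mean of 0.430 in PBS, 0.429 at 15 min, 0.863 at 30 min, and 1.10 at 4 h. Gadd45g was thus the more abundant of this pair until 30 min, and Gadd45b slightly so at 4 h. Over the 15 ratio differences tested in 5 pairs of genes, no raw p was under 0.1 and the smallest adjusted p (Benjamini-Hochberg over the 15) was 0.115, so by this exact permutation test none could pass 0.05.

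Pim3 rose early and Pim1 late. Pim3 measured 105, 118, and 108 CPM in PBS, 214, 210, and 205 CPM at 15 min, 403, 421, and 408 CPM at 30 min, and 896, 896, and 919 CPM at 4 h. Each group lay above the one before, with a log2 fold change of 0.93 ± 0.0343, 1.90 ± 0.0341, and 3.03 ± 0.0349 against PBS (adjusted p = 1.0e-08, 5.0e-20, and 7.0e-26). Pim3 was the smallest of the 4 changes called at 15 min.

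Pim1 measured 21.9, 25.3, and 22.1 CPM in PBS and 22.1, 23.5, and 21.5 CPM at 15 min, which overlapped. It measured 34.2, 34.6, and 38.8 CPM at 30 min, above every PBS library. At 4 h it stood at 695, 668, and 700 CPM. The 30 min difference of 0.63 ± 0.0569 lay just past the 1.5-fold limit and was not called (adjusted p = 0.87). The 4 h change was 4.89 ± 0.0483, or 29.7-fold, and nearly all of it came after 30 min, from where the step was 4.26 ± 0.0465 (adjusted p = 1.8e-26). An antisense gene, Gm26885, overlaps Pim1 and had a mean of 0.615 CPM in PBS and 4.97 CPM at 4 h. The library kits do not mark strand, so reads of both cannot be told apart in the shared part.

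The ratio of Pim3 to Pim1 in TPM turned over with time. It was 5.17, 5.59, and 4.82 in PBS, 12.3, 11.5, and 12.005 at 15 min, 14.4, 16.9, and 11.999 at 30 min, and 1.98, 2.07, and 1.99 at 4 h. Pim3 was the more abundant kinase in all 12 libraries, but the 4 h libraries lay below and the earlier LPS libraries above PBS. These levels include processed transcripts, which held a mean of 17.6% of Pim3 and 13.2% of Pim1 TPM in PBS and 35.7% and 4.11% at 4 h. The log2 ratio differed from PBS by 1.199, 1.46, and -1.37 (exact permutation p = 0.1 each). Ier5 to Ier2 moved the opposite way, with a mean ratio of 0.640 in PBS, 0.181 at 15 min, 0.163 at 30 min, and 0.880 at 4 h (exact permutation p = 0.1 for each difference from PBS).

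**Figure D3:**
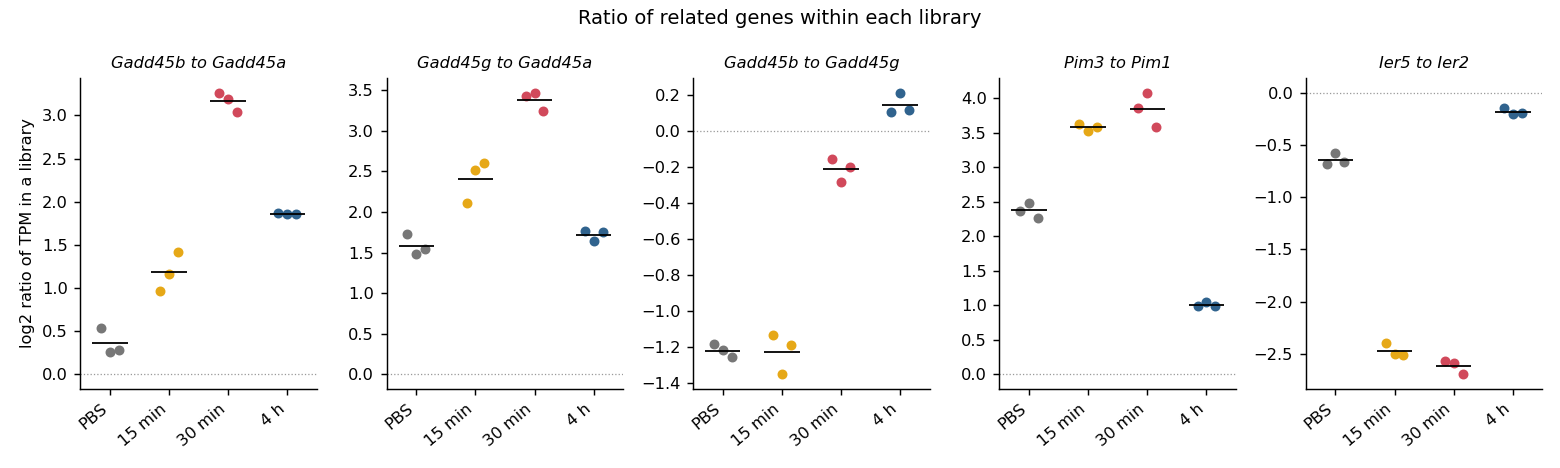
Log2 ratio of TPM of 2 related genes in each library (vertical axes, each with its own range, dotted line at equal level where in range) for PBS and the 3 times after LPS (horizontal axes), with 1 point per library and the group mean as a line. Gadd45b to Gadd45a peaks at 30 min, Gadd45b to Gadd45g climbs from 30 min on, and Pim3 to Pim1 rises at 15 and 30 min and drops below PBS at 4 h.

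Myc was the scarcest of the 10 genes and had the largest change. It measured 1.498, 1.62, and 2.48 CPM in PBS, which rested on 40 to 65 fragments per library, and 1.93, 1.36, and 1.59 CPM at 15 min. It measured 3.12, 2.11, and 3.71 CPM at 30 min and 77.4, 70.2, and 78.8 CPM at 4 h. The PBS, 15 min, and 30 min libraries overlapped in the order of their means, and the 4 h libraries stood far above them. The log2 fold change was -0.18 ± 0.219 at 15 min and 0.68 ± 0.201 at 30 min, with 95% intervals of -0.61 to 0.26 and 0.28 to 1.07 and neither called (adjusted p = 1 each). At 4 h it was 5.34 ± 0.146, or 40.5-fold (adjusted p = 5.1e-19), of which 4.66 ± 0.140 came after 30 min.

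The transcript to which the Myc fragments were assigned also differed between PBS and 4 h. In PBS Salmon gave a mean of 60.8% ± 20.3 (SD, n = 3) of them to Myc-204, a short form that begins inside the gene, and 20.4% ± 19.3 to the full-length Myc-205. At 4 h Myc-205 held 54.9% ± 4.47 and Myc-204 held 16.0% ± 7.0002, and for both the PBS and 4 h libraries did not overlap. The PBS shares rest on so few fragments that their spread is wide, and no test was made of this split.

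The steps between the LPS times differed between the 10 genes. From 15 to 30 min 7 of the 10 genes were called higher and 0 lower, where 2.69% of all genes were called higher and 1.96% lower, and the 3 not called were Gadd45a (0.39 ± 0.109), Pim1 (0.68 ± 0.0576), and Myc (0.85 ± 0.207). From 30 min to 4 h 7 were called higher, where 16.9% of all genes were, and 2 were called lower, Btg2 and Ier2, where 11.8% of all genes were. Ier3 was the remaining gene. From 15 to 30 min the later libraries lay above the earlier ones for 10 of 10 genes, where 23.7% of all genes did so and 23.9% lay below. From 30 min to 4 h they lay above for 8 and below for 2, against 33.1% and 34.4%. The Ier5 and Pim3 steps were about even, with 1.00 and 0.97 from 15 to 30 min and 1.19 and 1.14 from 30 min to 4 h. On a scale without TMM, the later steps of Gadd45g (0.52) and Pim3 (0.60) were not called.

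The 10 genes also spanned a wide range of abundance. By mean TPM in PBS they ranked between 1398 (Pim3) and 14677 (Myc) of the 19150 genes tested. At 15 min Ier2, at a rank of 254, was the most abundant of them, followed by Ier3 (334) and Btg2 (482). At 30 min Ier3 ranked 85, Ier2 125, and Btg2 160. At 4 h Ier3 ranked 118 and Pim3 190, and Myc, at 2782, was still the scarcest of the 10.

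Across the 12 libraries, the genes whose log2 CPM ran most like each of the 10 were sought among 12262 protein-coding genes with a mean of at least 5 CPM. The values of r are given as a description, since the libraries share 4 groups, and no p is given. Ier2 was most like Hspa8 (r = 0.999), Fos (0.997), and Btg2 (0.995), and Btg2 was most like Ccn1 (0.998), Fos (0.997), and Hspa8 (0.996). Fos, an AP-1 subunit and the best known early response gene, had mean levels of 8.59, 112, 426, and 132 CPM in PBS, 15 min, 30 min, and 4 h, highest at 30 min like that pair. Hspa8 encodes a constitutive heat shock chaperone and stood at 789, 1916, 3035, and 1877 CPM.

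Ier3 was nearest to Bcl6b (0.999), Dusp5 (0.998), and Bhlhe40 (0.997). Dusp5, a nuclear phosphatase of ERK, measured 1.78, 6.41, 22.3, and 26.9 CPM in the 4 groups. Gadd45b and Gadd45g were both nearest to Rel (0.999 and 0.998), an NF-kB subunit at 6.999, 7.01, 45.2, and 138 CPM, and were among each other's nearest 3 genes (0.998). The other neighbours were Zfp46 for Gadd45b and Cebpb for Gadd45g. Ier5 was nearest to Lcn2 (0.998), Ackr1 (0.998), and Cdkn1a (0.997), of which the iron-siderophore binder Lcn2 rose from 6.20 to 10331 CPM at 4 h.

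Pim3 was nearest to Cebpd (0.999), Trp53inp1 (0.998), and Plaur (0.998). Pim1 was nearest to Grrp1 (1.00), Rnf19b (0.999), and Stat3 (0.999), the last a transcription factor activated by IL-6 family cytokines, at 124, 121, 154, and 826 CPM. Gadd45a was nearest to Pla2g4a (0.996), Sphk1 (0.996), and Lrrc8d (0.995), whose means were also lower at 15 min than in PBS. Myc was nearest to Pdlim5, Eif4g1, and Sec23b (0.996 each), but on the deposited gene table these held ranks 107, 267, and 159, and Lrrc8d of Gadd45a fell to a rank of 1107 there (r = 0.953). The neighbours of Myc and the third neighbour of Gadd45a therefore depended on the table used. Others shifted less, the furthest being Stat3 of Pim1 (rank 19) and Plaur of Pim3 (rank 8). Among the pairs of the 10 genes, r ranged from -0.027 (Ier2 and Gadd45a) to 0.998 (Gadd45b and Gadd45g), and Pim1 and Myc stood at 0.993.

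Relatives from the same families were also tested. Of 8 (Btg1, Btg3, Tob1, Tob2, Pim2, Mycl, Mycn, and Ier5l), 0 were called at 15 min. At 30 min 2 were called higher, where 3.78% of all genes were. These were Tob1 (1.14 ± 0.0439) and Tob2 (0.94 ± 0.0462), which like Btg2 are antiproliferative adaptors. At 4 h 5 were called higher and 1 lower, against 19% and 13.8% of all genes, with a median of 0.96. Btg1 rose from 76.5 ± 1.87 to 433 ± 5.67 CPM (2.50 ± 0.0297) and Ier5l by 1.68 ± 0.0527, while Mycl fell by 1.55 ± 0.205 from 4.36 ± 0.732 CPM.

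Partners of the Gadd45 proteins were tested next. Of 11 tested, 1 was called higher at 15 min and 1 at 30 min, where 3.31% and 3.78% of all genes were. In both cases it was Cdkn1a, the cyclin-dependent kinase inhibitor p21. Cdkn1a measured 76.3 ± 1.86 CPM in PBS, 155 ± 2.81 at 15 min, 408 ± 1.02 at 30 min, and 1398 ± 26.4 at 4 h (SD, n = 3). At 4 h 4 of the 11 were called higher and 3 lower, where 19% and 13.8% of all genes were. Map2k3, which activates p38, rose by 2.53 ± 0.0420, whereas Map2k6, which does so too, fell by 2.39 ± 0.242 and p38 alpha itself (Mapk14) fell by 1.07 ± 0.0530. The median of the 11 was 0.10, -0.099, and 0.39 at the 3 times.

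Myc's own network and textbook targets were tested in the same way. Of 10 members of the Max network, 0 were called at 15 min and 0 at 30 min. At 4 h 3 of the 10 were called higher and 2 lower, not far from the 19% and 13.8% of all genes, with a median of 0.15. The antagonist Mxd1 rose by 2.03 ± 0.0655 and Mlxip by 1.00 ± 0.0883, and the antagonists Mxi1 and Mnt fell by 1.41 ± 0.0572 and 0.75 ± 0.0916. Of 20 textbook Myc targets 0 were called at 15 min, and 2 were called higher at 30 min, where 3.78% of all genes were. These were Eif4a1 (0.80 ± 0.0244) and Ldha (0.66 ± 0.0260). At 4 h 14 of the 20 were called higher and 1 lower, where 19% of all genes were called higher and 13.8% lower, and their median was 1.07. Odc1, the first enzyme of polyamine synthesis, rose from 57.5 ± 0.714 to 588 ± 5.53 CPM (3.36 ± 0.0300), the glycolytic enzyme Hk2 rose by 3.14 ± 0.158, and Cad, of pyrimidine synthesis, fell by 1.12 ± 0.0752.

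Among 9 Pim substrates tested, Cdkn1a was the single call at 15 min and at 30 min, where 3.31% and 3.78% of all genes were called higher. At 4 h Cdkn1a and Foxo1 (0.76 ± 0.0535) were called higher and the kinase inhibitor Cdkn1b lower (-0.87 ± 0.0548), shares near those of all genes, and the median of the 9 was -0.14. Of 12 genes of the CCR4-NOT complex and its Btg2 route, 0 were called at 15 min and 0 at 30 min. At 4 h Pabpc1 (1.199 ± 0.0268) and Cnot7 (0.67 ± 0.0413) were called higher and Cnot6l lower (-0.70 ± 0.0552), shares no higher than those of all genes, with a median of 0.077. Among 8 Ier3 partners, the survival factor Mcl1 was the single call at 30 min (1.46 ± 0.0243), where 3.78% of all genes were called higher. At 4 h Mcl1 (1.95 ± 0.0247) was called higher and the kinase ERK1 (Mapk3) lower (-1.997 ± 0.0402), shares no higher than those of all genes.

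Other p53 targets were set beside Gadd45a and Btg2, which p53 can also induce. Of 18, 4 were called higher and 0 lower at 15 min, 7 higher and 0 lower at 30 min, and 10 higher and 1 lower at 4 h, against 3.31%, 3.78%, and 19% of all genes called higher, with medians of 0.23, 0.39, and 1.29. Plk3 rose from 12.2 ± 0.4998 CPM by 1.63 ± 0.0556 at 15 min and 2.63 ± 0.0532 at 30 min, the death factor Pmaip1 by 1.19 ± 0.0808 at 15 min and 3.84 ± 0.0722 at 4 h, and Zmat3 fell by 0.97 ± 0.0892 at 4 h. At 15 min the direction of Gadd45a was thus opposite to these called genes, though its own change was not called. Of 12 cell cycle genes tested, 0 were called at 15 min, 0 at 30 min, and 5 higher and 2 lower at 4 h, where 19% and 13.8% of all genes were, with Mki67 at 1.17 ± 0.408 CPM in PBS and 8.66 ± 1.06 CPM at 4 h and Mcm2 lower by -1.83 ± 0.152.

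Salmon divided the fragments of a gene between its annotated transcripts. In Gadd45b, and by less in Gadd45g, this division moved at 15 min, when the gene's total still overlapped PBS. Gadd45b-202 (chromosome 10, 80930812 to 80931759 on GRCm38) is annotated with a retained intron and lies inside the gene. It held 1.37%, 0.570%, and 1.26% of the gene's fragments in PBS, 3.02%, 5.68%, and 4.77% at 15 min, 3.25%, 2.99%, and 3.37% at 30 min, and 1.75%, 1.95%, and 2.30% at 4 h. The share was higher than in PBS in 9 of 9 LPS libraries and highest at 15 min, when the level of the gene overlapped PBS. In fragments, the retained-intron form had 4.48 to 8.48 per library in PBS and 24.4 to 32.3 at 15 min, so the shares rest on few reads. Counted in TPM instead of fragments the mean share was 2.58%, 10.3%, 7.58%, and 4.88%, in the same order of groups.

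The shares of other transcripts are given in the same way. Retained-intron transcripts of Gadd45a held a mean of 4.63% ± 1.91 in PBS, 7.04% ± 1.33 at 15 min, 8.05% ± 2.89 at 30 min, and 5.58% ± 1.52 at 4 h, with overlap. For Gadd45g-202 the means were 6.57% ± 0.724, 8.75% ± 1.29, 7.57% ± 1.40, and 7.72% ± 0.482. Its 15 min libraries, at 7.60% to 10.2% on 88.1 to 146 fragments, all lay above PBS, at 5.83% to 7.28%. The 30 min and 4 h libraries overlapped PBS. Pim3-202, a processed transcript within the 3′ part of Pim3, held 2.54% ± 0.245 in PBS, 3.13% ± 0.575 at 15 min, 3.16% ± 0.698 at 30 min, and 6.05% ± 0.463 at 4 h, and the 4 h libraries stood above all others. Counted in TPM its mean share was 17.6%, 20.8%, 21.7%, and 35.7%, in the same order of groups. Btg2, Ier2, Ier3, and Ier5 have 1 annotated transcript each.

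**Figure D4:**
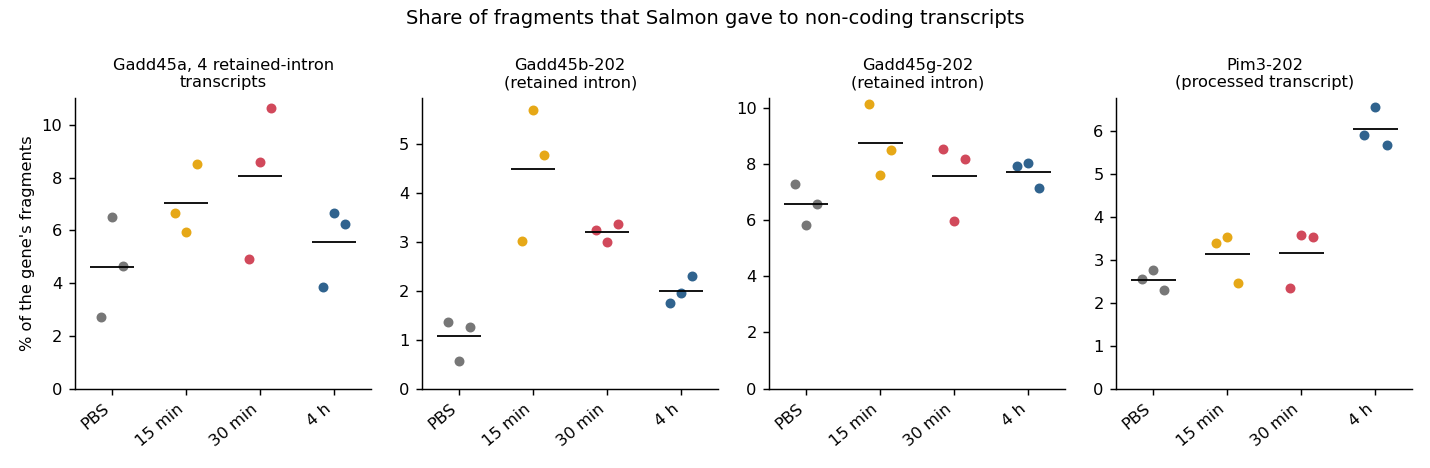
Percent of a gene's fragments (vertical axes, from 0, each with its own range) that Salmon gave to retained-intron transcripts of Gadd45a, Gadd45b, and Gadd45g and to the processed transcript of Pim3, for PBS and the 3 times after LPS (horizontal axes), with 1 point per library and the group mean as a line. The Gadd45b share is highest at 15 min and the Pim3 share at 4 h.

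The 10 genes share a compact build that did not enter their choice. All 10 span under 10000 bases on GRCm38, where 29.1% of 15795 protein-coding genes tested do. Their leading transcripts, those with most fragments, had a median of 3.5 exons and a median length of 1930 bases, against 8 exons and 2951 bases for all. Ier2 (chromosome 8, 84661331 to 84662852) and Ier5 (chromosome 1, 155096361 to 155099636) have a single exon, and Ier3 and Btg2 have 2. Btg2 lies on the same chromosome as Ier5, Ier3 and Pim1 both lie on chromosome 17, and Pim3 and Myc both lie on chromosome 15.

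In the 3′ UTR of the leading transcript the pentamer ATTTA, the core of AU-rich elements that shorten the life of an mRNA, was counted. It stood at least once in 7 of the 10 genes, close to the 68.1% of 14911 protein-coding genes tested with a 3′ UTR, and at least 2 times in 7, against 49.3%. Ier3, Pim1, Pim3, and Btg2 held 5 each, Ier5, Gadd45a, and Myc held 2 each, and Ier2, Gadd45b, and Gadd45g held 0. Per 1000 bases the median was 2.91 in the 10 genes and 1.27 in all. Btg2 with 5 and Ier2 with 0 both peaked at 30 min, and Gadd45b and Gadd45g, alike in course, held 0 each. A relation of this count to the courses in time was not tested.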

How the data were processed

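RNA of mouse cerebral vessels was read as paired ends after SMART-Seq v4 and Nextera XT preparation in 12 libraries, 3 per group. Groups came from the sample records. Per the submitters' processing notes, Salmon 1.2.1 and DESeq2 were used on GRCm38.p6. The estimated counts deposited by the authors are fragments per transcript, not normalized. TPM, also deposited, is scaled for length and to a fixed sum per library. Values of the gene table are a signal that the authors made by dividing counts by DESeq2 size factors and by transcript length.

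Of 140948 transcripts 139852 were joined to GENCODE M21, and the rest held 0.482% to 0.850% of fragments. Counts were summed to genes, rounded, and tested in edgeR 4.0.16 under R 4.3.3 with all 12 libraries in 1 quasi-likelihood fit (filterByExpr with a minimum count of 10, TMM factors, glmTreat at 1.5-fold, Benjamini-Hochberg over 19150 genes). The SE is the log2 fold change divided by the root of the quasi-likelihood F. TMM factors averaged 1.17, 1.15, 1.04, and 0.717 in PBS, 15 min, 30 min, and 4 h. Simulated counts were used to test the fit. Libraries of 1 group differed by 2.18 to 2.84 times the counting variance, more than the same library sequenced again would. This check cannot tell separate pools of mice from separate preparations of the same RNA. Same-numbered libraries deviated from their group means with r of at most 0.0679 over 18 pairs, so numbers were not treated as pairs. Column names of the gene table were matched by the number they share with each library's own file, and 12 of 12 correlated best with it.

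Named from each list were up to 2 largest rises and 2 largest falls among called genes per comparison with PBS, besides the 10 genes and 3 nearest genes each. The genes, lists, and tests were chosen with earlier results of these data known. Promoters and their starts are from RefSeq, searched over 250 bases. Alternatives were DESeq2 1.42.0 (with a local dispersion trend, since its parametric trend was unstable on these counts), RLE factors, totals only, no filter, no fold limit, a length offset, only the groups compared, a replicate block, limma 3.58.1 on the gene table and on TPM with a pseudocount of 1, and leaving out each library.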

Additional observations from a re-analysis of the deposited data

Results flagged for a closer look

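Effects against PBS differed between times after LPS for several of the genes, by the edgeR test of the difference itself, LPS time against LPS time. Between 15 and 30 min the log2 difference was 2.43 for Gadd45b, 1.92 for Ier3, 1.78 for Btg2, 1.42 for Gadd45g, 1.15 for Ier2, 1.00 for Ier5, and 0.97 for Pim3. Between 30 min and 4 h it was 4.66 for Myc, 4.26 for Pim1, 2.77 for Gadd45a, 1.47 for Gadd45b, 1.19 for Ier5, 1.14 for Pim3, and 1.06 for Gadd45g, and it was negative for Btg2 (-1.51) and Ier2 (-1.26).

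In CPM Gadd45a was the 1 gene of the 10 whose libraries all lay below PBS at 1 time and all above it at another. Pim1 did so too on other scales. Its 15 min libraries measured 14.3 to 16.4 TPM against 17.2 to 18.7 in PBS, and 448 to 511 against 536 to 595 in the gene table. The log2 fold change of Gadd45a at 4 h exceeded that at 15 min by 3.16 and that at 30 min by 2.77, and only the latter difference was tested. Neither early value was called.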

How the results depend on the processing

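Of 800 alternative values of the 50 log2 fold changes, 779 kept direction and side of the threshold, 10 passed it newly, 6 no longer passed it, and 5 reversed. The number of the 10 genes called per comparison, in either direction, stayed within 1.5 times of the main number in the alternatives run. Counts over all genes did not: the 633 higher and 167 lower at 15 min became 339 and 67 in limma on the gene table, 285 and 50 in limma on TPM, and 3905 and 3488 without a fold limit, and the 724 and 153 at 30 min became 476 and 55, 255 and 165, and 3771 and 3295. From 15 to 30 min 516 and 375 became 309 and 134, 151 and 369, and 3674 and 3479, and from 30 min to 4 h 3229 and 2255 became 6114 and 6384 without a fold limit and 1917 and 6931 with totals only. The reversals were all of small values that had not been called: at 15 min Gadd45b (-0.017 without the first 15 min library, in a range of -0.017 to 0.109 over the libraries left out), Pim1 (0.023 without the second PBS library, range -0.089 to 0.023), and Myc (0.074 without the third PBS library, range -0.33 to 0.074), and Ier3 from 30 min to 4 h (-0.42 with totals only and -0.48 in limma on TPM). The log2 ratio of Gadd45b to Gadd45g at 15 min ranged from -0.050 to 0.058 when single libraries were left out. Without a fold limit Ier5 and Gadd45a at 15 min and Gadd45a, Pim1, and Myc at 30 min also passed. In limma on TPM the 15 to 30 min steps of Ier5 (0.69) and Pim3 (0.66) and the later steps of Ier5 (0.59) and Gadd45g (0.47) no longer passed.

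Totals only shifted the median of all genes at 4 h by -0.70 on the log2 scale and turned 3636 higher and 2637 lower calls into 1907 and 8555, and TPM shifted it by -0.80 (1296 and 7309 calls). Without a fold limit 6680 and 6444 passed at 4 h. All 10 genes were still called higher than PBS at 4 h with totals only. With a replicate block 4, 7, and 10 genes were called at the 3 times, and no call changed. Myc rested on few fragments before 4 h, which limits its early values.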
